A study of Homo sapiens with 6 samples.

Results

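The genes examined here encode the machinery of oxidative phosphorylation, the respiratory chain complexes I to IV and the ATP synthase (complex V) of the inner mitochondrial membrane. They were chosen by name, as autosomal protein-coding genes of the GENCODE annotation (release 44, placed on hg19) whose symbols begin with NDUFA, NDUFB, NDUFC, NDUFS, NDUFV, SDH, UQCR, COX4, COX5, COX6, COX7, COX8 or ATP5. The rule found 99 of 19229 autosomal coding genes. Chromatin accessibility was measured by ATAC-seq, in which the Tn5 transposase cuts open DNA, in 3 esophageal lines with 2 libraries each. HET-1A, a non-cancerous esophageal epithelial line, was grown in BEBM with its recommended additives (libraries 1 and 2). KYSE-30 (libraries 4 and 6) and KYSE-150 (libraries 7 and 8) are esophageal squamous cell carcinoma lines and were grown in RPMI/F12 with 5% FBS, so that disease state and medium cannot be told apart. The labels name no treatment, and each line stands for a single source.

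Complex I oxidises NADH and complex II succinate, complex III passes the electrons on through cytochrome c, and complex IV reduces oxygen. Complex V makes ATP from the proton gradient that complexes I, III and IV build up. Apart from the subunits encoded in mitochondrial DNA, the genes of complexes I to V lie in the nucleus. Their promoters are known targets of NRF1, of the ETS-family factor GABP and of YY1. Most subunits are needed in nearly every cell, whereas a few isoforms of complex IV are known for their restriction to muscle, lung or testis.

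A gene was counted as having a start-site peak when a called peak came within 1 kb of the start of any of its annotated transcripts. The lists differed widely in length within a line. HET-1A library 1 held 168 peaks and library 2 held 15979, KYSE-150 libraries 7 and 8 held 547 and 259, and KYSE-30 libraries 4 and 6 held 1255 and 11671. Since every library has a number of its own, libraries 2 (HET-1A) and 6 (KYSE-30) are mostly given by number in what follows. Each list was called on its own library at a q-value under 0.05. Fold enrichment is the number of cut-site tags at the summit of a peak over the local background, each with 1 added. The background that applied across the genome ranged from 1.49 tags per 200 bp in KYSE-30 library 6 to 3.34 in HET-1A library 2. Since a line had only 2 libraries, the smallest p that exact permutation of 2 against 2 can give (two-sided) is 0.33. The lines were therefore not tested against each other, and a missing peak says only that none was called in that library. The intervals given are Wilson 95% intervals and cover counting error only. Of 10 epithelial and squamous marker genes, 4 had a start-site peak in HET-1A library 2 (KRT8, KRT18, EPCAM and ITGA6; 16.8 to 68.7%, against 32.7% of all autosomal coding genes) and 2 in KYSE-30 library 6 (KRT8 and EPCAM; 5.67 to 51.0%, against 27.0%). KRT5, KRT14, TP63, SOX2, CDH1 and ITGB4 had none in any library. Of 6 fibroblast, endothelial and blood cell markers, 0 had a peak in library 2, and only VIM, a gene of mesenchymal cells, had one in KYSE-30 library 6 (upper limits of the intervals 39.0% and 56.4%). The background lay within each of these intervals, so the marker counts do not check the identity of the cells.

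The reference sequence upstream of 7 of the genes is shown here because the results turn on them. NDUFB4, NDUFS3, ATP5MC1, ATP5MC2 and COX8A had start-site peaks in 3 libraries each, COX6A1 had the highest mean fold enrichment of complex IV, and ATP5F1A, a subunit of the catalytic head of the ATP synthase, had no peak in any library. Each stretch is hg19, 5′ to 3′ along the strand of the gene, and ends at or before the canonical start. Capitals mark matches on either strand. The ETS word searched was CCGGAAG, and that of NRF1, a leading regulator of respiratory genes, was GCGCANGCG. For the general promoter factor SP1 the word was GGGCGG, and for the box bound by NF-Y it was CCAAT. The capitals of NDUFB4 hold 3 NRF1 matches, of which the first pair overlap, and those of NDUFS3 hold an SP1 and an ETS match that share bases.
NDUFB4, chr3:120314983-120315174, plus strand: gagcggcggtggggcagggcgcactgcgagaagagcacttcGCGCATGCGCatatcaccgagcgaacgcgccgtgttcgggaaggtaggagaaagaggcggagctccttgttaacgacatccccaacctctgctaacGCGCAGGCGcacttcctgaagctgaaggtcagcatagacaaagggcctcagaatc
NDUFS3, chr11:47600529-47600580, plus strand: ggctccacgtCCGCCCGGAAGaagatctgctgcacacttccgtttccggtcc
ATP5MC1, chr17:46970040-46970126, plus strand: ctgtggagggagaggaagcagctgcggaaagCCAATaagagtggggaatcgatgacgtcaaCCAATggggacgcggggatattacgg
ATP5MC2, chr12:54069868-54069959, minus strand: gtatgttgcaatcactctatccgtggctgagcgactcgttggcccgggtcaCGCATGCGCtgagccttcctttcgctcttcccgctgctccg
COX8A, chr11:63741892-63742091, plus strand: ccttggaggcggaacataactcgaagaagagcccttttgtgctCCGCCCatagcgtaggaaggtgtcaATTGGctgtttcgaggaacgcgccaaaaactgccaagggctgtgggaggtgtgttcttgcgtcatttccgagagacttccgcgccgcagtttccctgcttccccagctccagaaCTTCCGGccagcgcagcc
COX6A1, chr12:120875716-120875892, plus strand: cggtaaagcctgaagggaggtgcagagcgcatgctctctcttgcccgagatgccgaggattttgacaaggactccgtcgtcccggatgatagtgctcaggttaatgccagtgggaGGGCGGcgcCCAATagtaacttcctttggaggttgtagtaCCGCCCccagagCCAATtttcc
ATP5F1A, chr18:43678320-43678462, minus strand: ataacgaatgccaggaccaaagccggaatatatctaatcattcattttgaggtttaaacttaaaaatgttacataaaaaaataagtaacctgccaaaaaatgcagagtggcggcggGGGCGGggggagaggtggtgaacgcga

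The promoters of oxidative phosphorylation genes carried called peaks in the 2 longest lists more often than coding genes at large. In HET-1A library 2, 56 of the 99 genes had a start-site peak (56.6%, 46.7 to 65.9), against 32.7% of all coding genes. In KYSE-30 library 6, 48 did (48.5%, 38.9 to 58.2), against 27.0%. In both lists the share over all coding genes lay below the interval of the respiratory genes. The 4 short lists held few such peaks. KYSE-30 library 4 had 8 of the genes (8.08%, 4.15 to 15.1, against 3.67% of coding genes), KYSE-150 library 7 had 3 (3.03%, 1.04 to 8.53, against 1.74%) and KYSE-150 library 8 had 1 (1.01%, 0.179 to 5.50, against 0.255%). HET-1A library 1 had 0 of 99, which allows a share of up to 3.74%, against 0.0416% of coding genes. In these 4 lists the background lay within or, for library 4, just below the interval of the respiratory genes. When every list was held to its 168 strongest peaks by p-value, 0 of the 99 genes remained in library 2 (0 to 3.74%, against 0.499% of coding genes) and 1, NDUFB5, in library 6 (1.01%, against 0.785%), too few to set apart from the background.

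Over all libraries, 71 of the 99 genes had a start-site peak at least once (71.7%, against 42.9% of coding genes). Of these, 35 had it in 1 library, 28 in 2, 7 in 3 and 1 in 4. Coding genes at large were not counted by number of libraries, so these 4 counts have no background beside them. Peaks in HET-1A as well as KYSE-30 were found for 34 genes (34.3%, 25.7 to 44.1, against 17.7%), in HET-1A and not KYSE-30 for 22 (22.2%, 15.2 to 31.4, against 15.0%), and in KYSE-30 and not HET-1A for 15 (15.2%, 9.40 to 23.5, against 9.93%). The share called in both lines was 1.94 times that of coding genes. Of the shares called in only one line, the interval for HET-1A began just above the background and that for KYSE-30 contained it. The lists of libraries 2 and 6 had 33 genes in common (33.3%, against 17.3%). In all 33, peaks of the 2 libraries overlapped by at least 1 bp. These counts rest on libraries 2 and 6, since without library 2 the genes called in HET-1A as well as KYSE-30 numbered 0, and without library 6 they numbered 7.

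**Figure D1:**
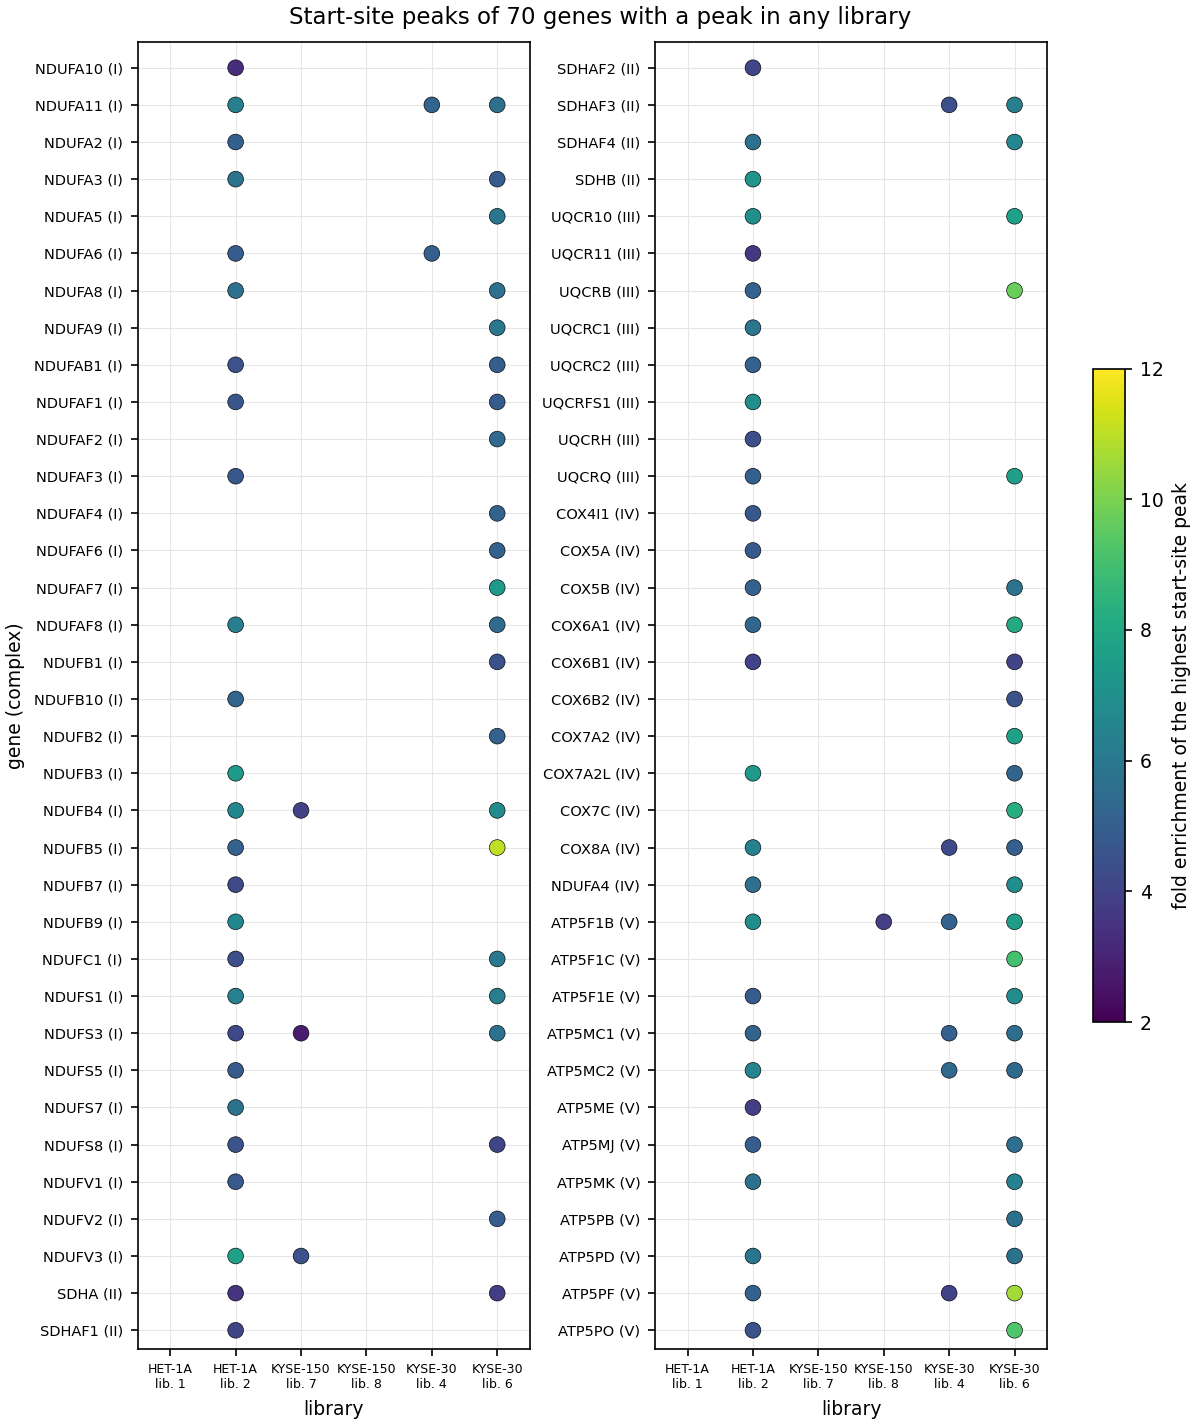
Start-site peaks of the genes with a peak in any library, 70 of 71 shown. Each row is a gene with its complex in brackets, each column a library, and the colour of a point is the fold enrichment of the highest peak within 1 kb of a start. Nearly all points lie in HET-1A library 2 and KYSE-30 library 6, and HET-1A library 1 has none.

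Of the 8 genes seen in 3 or more libraries, 4 encode parts of the ATP synthase. ATP5F1B, the catalytic beta subunit, was the only gene called in 4 libraries. Its fold enrichment was 6.91 in library 2 (HET-1A), 7.52 and 5.14 in libraries 6 and 4 (KYSE-30) and 3.83 in library 8 (KYSE-150). All 4 summits lay upstream of the start, at 122 to 213 bp. ATP5MC1, which encodes the proton-carrying c subunit of the rotor ring, had 5.15 in library 2, 5.08 in library 4 and 5.52 in library 6. ATP5MC2 encodes the same mature c subunit and had 6.51, 5.35 and 5.36 in these libraries. ATP5MC3, the other gene for the c subunit, had no peak in any library. ATP5PF, coupling factor 6 of the stalk, had 5.06, 3.98 and 10.60. The peaks of ATP5PF also lay within 1 kb of the start of GABPA, the DNA-binding subunit of GABP, which is transcribed the other way, so that the peaks cannot be given to one gene. For these genes the 2 KYSE-30 libraries were close for ATP5MC1 and ATP5MC2 and far apart for ATP5PF.

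The other 4 of the 8 belong to complexes I and IV. COX8A, a small subunit of complex IV, had a fold enrichment of 6.40 in library 2, 4.21 in library 4 and 5.00 in library 6. NDUFA11, an accessory subunit of the membrane arm of complex I, had 6.27, 5.19 and 5.62 in the same libraries. Its summits lay 573 to 731 bp upstream of its nearest start, and the peaks also came within 1 kb of the start of VMAC. NDUFB4, another membrane-arm subunit, was called in library 2 (6.64), library 6 (6.83) and KYSE-150 library 7 (3.95). Its summits fell 98, 114 and 159 bp upstream of the nearest start, within the stretch shown above. The NDUFB4 peak of library 7 had 14 tags and ranked at 89.4% of its list by p-value. NDUFS3, a core subunit of the hydrophilic arm, was called in the same 3 libraries at 4.22, 5.75 and 2.82, and its peaks are shared with KBTBD4. In library 7 the NDUFS3 peak had 25 tags over a local background of 8.22, which was 2.94 times the genome background, and it ranked at 95.4% of the list by p-value.

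In both KYSE-30 libraries, 7 genes had a peak (7.07%, 3.47 to 13.9, against 3.07% of coding genes). They were ATP5F1B, ATP5MC1, ATP5MC2, ATP5PF, COX8A, NDUFA11 and SDHAF3. SDHAF3, an assembly factor for the iron-sulfur subunit of complex II, had 4.46 in library 4 and 6.33 in library 6, and no peak in HET-1A. The eighth gene of library 4 was NDUFA6, an accessory subunit of complex I, with 5.00. It also had 4.86 in library 2 and no peak in library 6. In KYSE-150 library 7 the remaining gene was NDUFV3, a subunit of the NADH-binding module, at 4.53. NDUFV3 had 3 start-site peaks in library 2, at 4.78, 7.69 and 6.98, of which the last lay at its canonical start and overlapped the KYSE-150 peak. The other 2 lay at the start of a transcript without a defined coding sequence, next to the start of WDR4. It had none in KYSE-30.

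By complex, the shares ran from 37.5% to 88.9% in library 2 (HET-1A) and from 33.3% to 75.0% in library 6 (KYSE-30), with wide intervals. The share of all coding genes lay within the interval in library 2 for the assembly factors of complex I and for complexes II, IV and V, and in library 6 for complexes II and III. With subunits and assembly factors of complex II taken apart, the 4 subunits had 25.0% in library 6 (4.56 to 69.9), below the 27.0% of coding genes. Complex III stood highest in library 2 and lowest in library 6, and the assembly factors of complex I stood the other way round. No test of these differences was made.

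**Figure D2:**
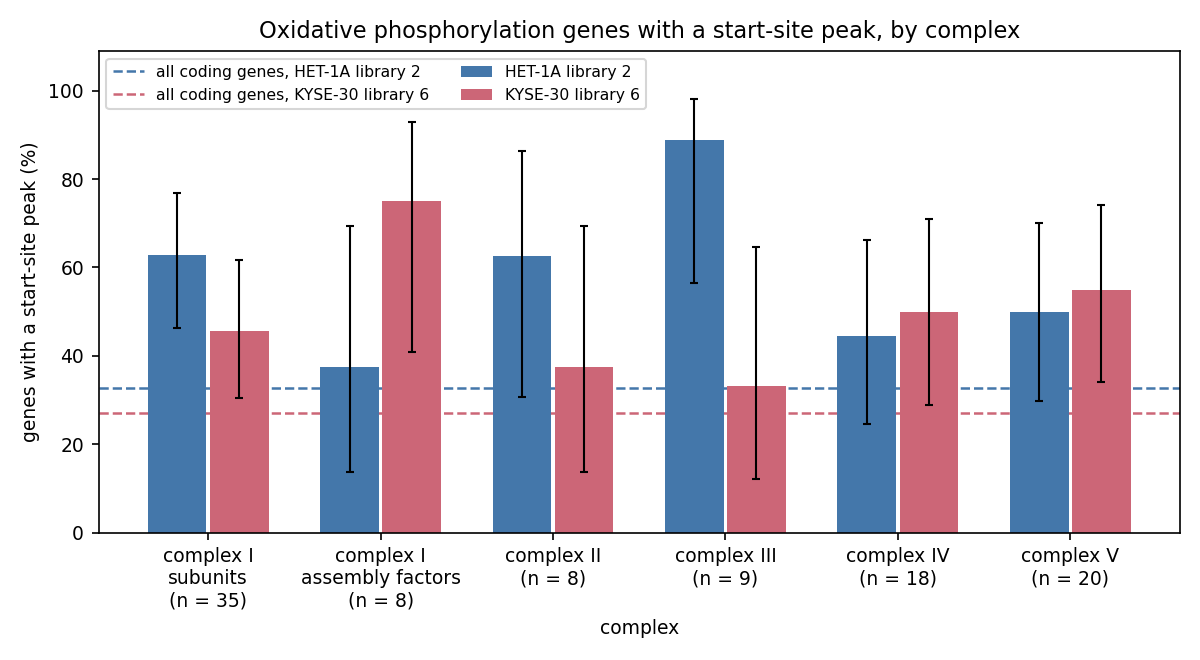
Share of genes with a start-site peak by complex, as bars with Wilson 95% intervals (counting error only) for HET-1A library 2 and KYSE-30 library 6, with n the number of genes. Dashed lines mark the share of all autosomal coding genes, 32.7% and 27.0%.

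Of 35 subunits of complex I, 22 had a start-site peak in HET-1A library 2 (62.9%, 46.3 to 76.8, against 32.7% of coding genes). In KYSE-30 library 6, 16 had one (45.7%, 30.5 to 61.8, against 27.0%). Both lists held 11 of them, and 8 had no peak in any library. Of the shared ones, NDUFB5 and NDUFB4 had the highest mean fold enrichment, at 8.04 and 6.73. NDUFB5, a membrane-arm subunit, rested on 1 library for this place. It had 5.06 with 21 tags in library 2 and 11.02 with 51 tags in library 6 (q = 1.27e-35), the highest value of any of the 99 genes. That peak, at chr3:179322310-179322924, ranked in the first 0.634% of its list and also lay at the start of MRPL47, which encodes a mitochondrial ribosomal protein. Among the core subunits, NDUFS7 (5.76) and NDUFV1 (4.76) were called in library 2 alone, and NDUFV2 (4.90) in library 6 alone.

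Of the 8 assembly factors of complex I, 3 were called in HET-1A library 2 (37.5%, 13.7 to 69.4, against 32.7% of coding genes). In KYSE-30 library 6, 6 were called (75.0%, 40.9 to 92.9, against 27.0%). The intervals overlap, and each share rests on a single library. NDUFAF2, NDUFAF4, NDUFAF6 and NDUFAF7 were called in library 6 and not in HET-1A. NDUFAF7, a methyltransferase, had the highest fold enrichment among them at 7.37. Its peak is shared with CEBPZ, that of NDUFAF2 with ERCC8, and the NDUFAF6 peak of 4.46 with CCNE2. NDUFAF8 had 6.25 in library 2 and 5.45 in library 6, in peaks shared with TEPSIN, and NDUFAF1 had 4.67 and 4.82. NDUFAF5, the partner of NDUFAF8 in modifying NDUFS7, had no peak in any library.

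Complex II has 4 subunits. SDHA, the flavoprotein that oxidises succinate, was called in HET-1A library 2 at 3.52 and in KYSE-30 library 6 at 3.78, and its peaks are shared with CCDC127. SDHB, the iron-sulfur subunit, was called in library 2 alone at 7.21, with 42 tags. The membrane anchors SDHC and SDHD had no peak in any library. Of the 4 assembly factors, SDHAF4, which assists SDHA, was called in both of the longest lists at 5.76 and 6.59.

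All 8 subunit genes of complex III that the rule covers carried a peak in library 2 (HET-1A; 67.6 to 100%, against 32.7% of coding genes). In library 6 (KYSE-30), 3 of them carried one (37.5%, 13.7 to 69.4, against 27.0%, which the interval contains). UQCRB had 5.06 in library 2 and 9.73 in library 6, UQCR10 had 6.99 and 7.65, and UQCRQ had 5.02 and 7.60. All of these small subunits were higher in library 6, UQCRB by the most, with 43 tags over a local background of 3.52 there and 21 tags over 3.34 in library 2. The peaks of UQCR10 are shared with ZMAT5 and those of UQCRQ with GDF9. UQCRC1 and UQCRC2, the core proteins, and UQCRFS1, the Rieske iron-sulfur protein, were called in library 2 alone. Their fold enrichments were 5.87, 5.06 and 6.91. UQCRH, the hinge protein, had 4.39 in library 2, in a peak shared with LRRC41, while UQCRHL, its retrocopy, had no peak in any library.

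In complex IV, 8 of 18 genes were called in HET-1A library 2 (44.4%, 24.6 to 66.3, against 32.7% of coding genes, which the interval contains). In KYSE-30 library 6, 9 were called (29.0 to 71.0%, against 27.0%). Among the widely used subunits the count was 7 of 10 in either library (39.7 to 89.2%, above the share of coding genes in each). COX6A1 had 5.31 and 8.06, with summits 121 and 146 bp upstream of the start, in the stretch shown above. COX7A2L, which links complexes III and IV into supercomplexes, had 7.39 and 5.22. NDUFA4, a complex IV subunit in spite of its name, had 5.61 and 6.87. COX4I1 (4.70) and COX5A (4.77), which join early in assembly, were called in library 2 and not in KYSE-30, while COX5B had 5.05 and 5.80. The COX4I1 peak is shared with EMC8, and the COX6A1 peaks with a coding gene that has no symbol.

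Of 7 tissue-restricted isoforms of complex IV, 0 had a peak in library 2 (0 to 35.4%, against 32.7% of coding genes) and 1 in library 6 (14.3%, 2.57 to 51.3, against 27.0%). Both intervals contain the background, so 7 genes do not set these isoforms apart from coding genes at large. That gene was COX6B2, the testis form, at 4.55 with 15 tags, while the widely used COX6B1 had 3.99 in library 2 and 4.0 in library 6. The COX6B1 peak in library 2 held 60 tags over a local background 4.27 times that of the genome, against 2.02 times in library 6. In the other pairs only the widely used form had a peak. COX4I1, COX6A1, COX8A and NDUFA4 were called, with the values above, and COX4I2, COX6A2, COX8C and NDUFA4L2 were not. COX7A2 had 7.69 in library 6, and COX7A1, its muscle form, had no peak within 1 kb, the nearest in library 2 being 1674 bp from a start.

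In complex V, 10 of 20 genes were called in HET-1A library 2 (29.9 to 70.1%, against 32.7% of coding genes, which the interval contains). In KYSE-30 library 6, 11 were called (55.0%, 34.2 to 74.2, against 27.0%), and both lists held 9. ATP5PF, ATP5F1B and ATP5PO led the shared genes with mean fold enrichments of 7.83, 7.21 and 6.91. ATP5PO, which joins the stalk to the catalytic head, had 4.57 in library 2 and 9.24 in library 6. ATP5F1C, the gamma subunit that turns within the head, was called in library 6 alone at 9.03, in a peak shared with KIN. ATP5F1A, the alpha subunit that forms the head together with ATP5F1B, had no peak. The nearest peak to any of its 14 annotated starts was 119015 bp away in library 6 and 217758 bp in library 2. A fixed list of 20 core subunits of all complexes held the membrane anchors SDHC and SDHD and the complex IV subunits COX4I1, COX5A and COX5B. It is therefore not a list of catalytic subunits alone. Of the 20, 15 had a peak in library 2 (75.0%, 53.1 to 88.8, against 32.7% of coding genes). In library 6, 9 had one (45.0%, 25.8 to 65.8, against 27.0%, which the interval contains). In any library 17 had one, against 42.9% of coding genes, and ATP5F1A, SDHC and SDHD were the 3 without one. The readthrough genes, the ATPase inhibitor ATP5IF1 and the retrocopies, 5 in all, had no peak in any library (0 to 43.4%, which contains the background).

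Fold enrichment at the 33 shared genes had a median of 5.31 in HET-1A library 2 (3.52 to 7.39) and 5.80 in KYSE-30 library 6 (3.78 to 11.02). Taking the highest start-site peak of each gene, it was higher in library 6 for 23 genes and in library 2 for 10. For NDUFC1, an accessory subunit of complex I, the highest peak of library 6 (6.03) lay at another start than that of library 2 (4.37). At the start where its peaks overlap, which lies beside that of NAA15, library 6 had 3.99, so that over overlapping peaks the counts were 22 and 11. The same counts were not made for all coding genes called in both lists, so these splits have no background beside them. Start-site peaks of all coding genes, shared or not, also had a higher median in library 6 (5.63) than in library 2 (4.64). The genome backgrounds of 1.49 and 3.34 tags differ the other way, and their part in the difference was not tested. NDUFB5, ATP5PF, UQCRB and ATP5PO stood apart with values above 9 in library 6 and at most 5.06 in library 2.

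**Figure D3:**
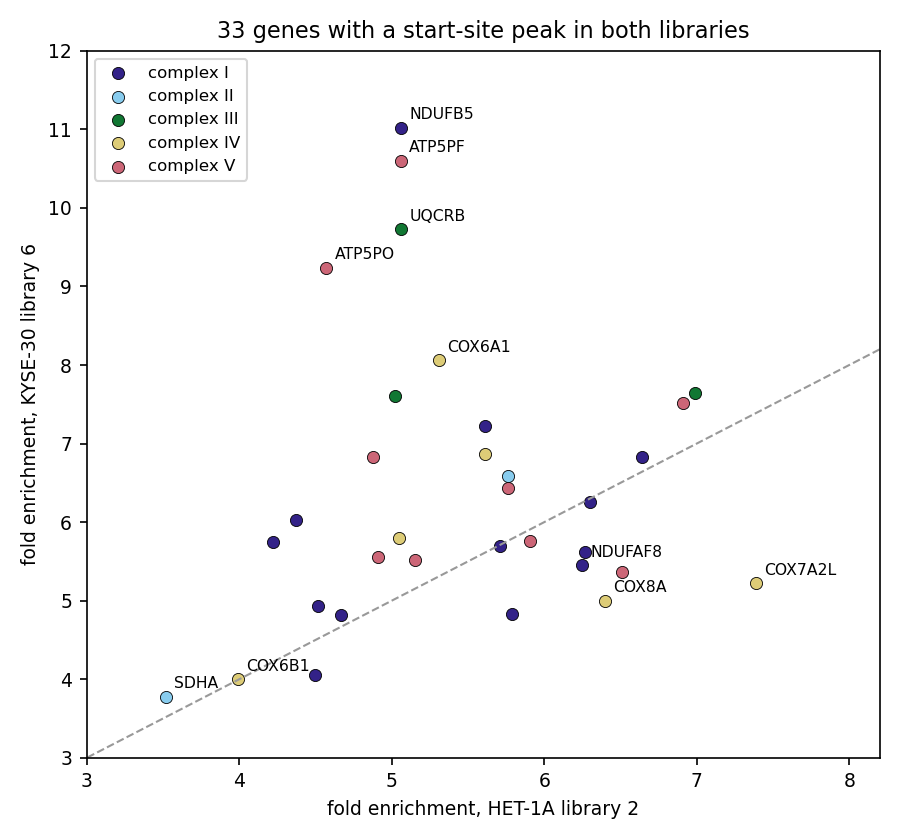
Fold enrichment at the start sites of the 33 genes called in HET-1A library 2 (x axis) and in KYSE-30 library 6 (y axis), on linear axes that start at 3, coloured by complex. Each point is the highest start-site peak of a gene. The dashed line marks equal values, and 23 genes lie above it.

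The peaks of these genes were close in height and width to other start-site peaks, and their summits lay near the start. In HET-1A library 2 the 58 peaks had a median fold enrichment of 5.06 against 4.64 for the 5857 start-site peaks of all coding genes, and a median width of 301 against 294 bp. In KYSE-30 library 6 the 50 peaks had 5.75 against 5.63, and 306 against 318 bp. The summit lay at a median of 59 bp from the nearest start in library 2, against 78 bp for all coding genes, and at 56 against 74 bp in library 6. Within 250 bp of a start lay 89.7% of the summits against 81.4%, and 90.0% against 81.3%. Local background at the summit was at a median of 1.32 and 1.46 times that of the genome, against 1.45 and 1.56.

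Many of the promoters were shared with a neighbour. A coding gene on the other strand began within 1 kb of the start of 38 of the 99 genes (38.4%), against 16.4% of all coding genes. In HET-1A library 2, 26 of the 58 peaks also fell within 1 kb of the start of another coding gene, and in KYSE-30 library 6, 22 of 50. That count was not made for the start-site peaks of all coding genes. In library 2, 65.8% of the 38 respiratory genes with a divergent neighbour had a peak (49.9 to 78.8), against 58.4% of coding genes with one. For the 61 without a neighbour the share was 50.8% (38.6 to 62.9), against 27.7%. In library 6 the shares were 60.5% (44.7 to 74.4) against 49.0% with a neighbour and 41.0% (29.5 to 53.5) against 22.7% without. In both libraries the background lay within the interval where a neighbour was present and below it where none was. The difference between the 2 classes was not tested. The genes had a median of 6 annotated starts each, against 5 for all coding genes.

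Promoter sequence was described in windows from 250 bases before to 50 after the canonical start, for the 99 genes and for all coding genes. The letters GCGCANGCG of NRF1 were present in 30 of 99 windows (30.3%, 22.1 to 40.0), against 10.9% of all windows of this length. CCGGAAG, bound by GABP and other ETS factors, was present in 27 (27.3%, 19.5 to 36.8), against 14.1%. AAGATGGC of YY1 was present in 16 (16.2%, 10.2 to 24.7), against 4.02%. At least 1 of these 3 words was found in 59 windows (59.6%), against 25.5%. GGGCGG of SP1 (61.6% against 61.3%), CCAAT (30.3% against 35.7%) and TGANTCA of AP-1 (4.04% against 5.36%) were at about the share of all windows. Both strands were searched, matches may overlap, and a match describes letters and not a bound site.

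**Figure D4:**
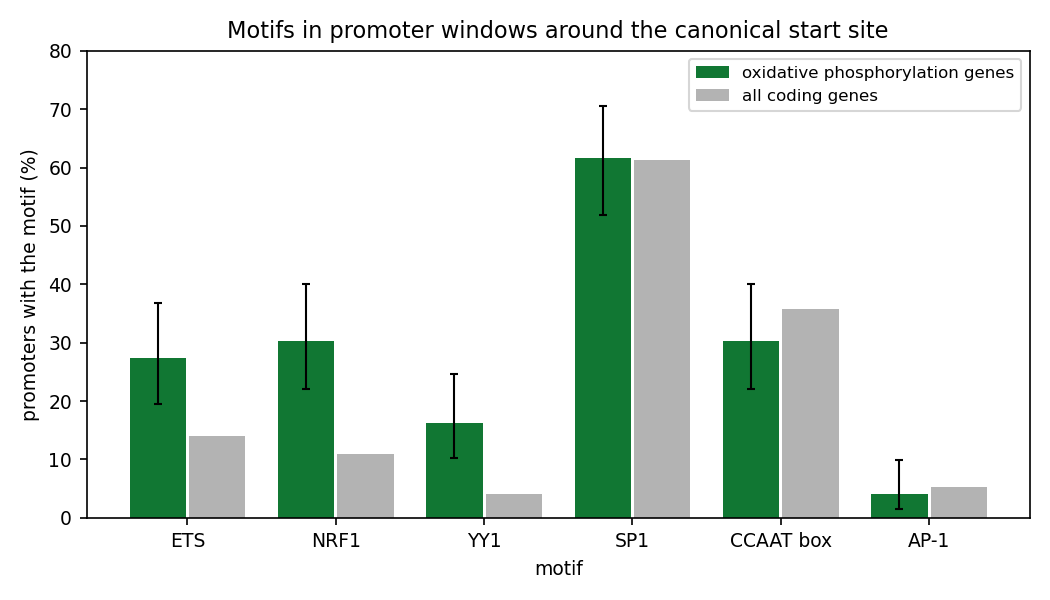
Share of promoter windows, from 250 bases before to 50 after the canonical start, that hold each motif on either strand. Green bars are the 99 genes with Wilson 95% intervals, grey bars all autosomal coding genes, and the ETS, NRF1 and YY1 words lie above the share of all coding genes.

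Between the 71 genes with a peak in any library and the 28 without, the SP1 word differed most, at 67.6% (56.1 to 77.3) and 46.4% (29.5 to 64.2). The ETS word was present in 32.4% (22.7 to 43.9) and 14.3% (5.70 to 31.5). The corresponding shares were 31.0% and 28.6% for NRF1, 16.9% and 14.3% for YY1, 32.4% and 25.0% for CCAAT, and 2.82% and 7.14% for AP-1. The intervals of the 2 sets overlapped for every word, and no test of the differences was made. The 28 include 6 of the 7 tissue-restricted isoforms and the 5 readthrough, inhibitor and retrocopy genes, so the sets differ in kind of gene. Peaks were counted at any annotated start, and words at the canonical start alone. In HET-1A library 2, 21 of the 27 genes with the ETS word had a peak (77.8%), against 35 of 72 without it (48.6%). In KYSE-30 library 6 the same shares were 51.9% and 47.2%. For the SP1 word they were 62.3% and 47.4% in library 2 and 49.2% and 47.4% in library 6. Over all coding genes the shares for the ETS word were 52.0% and 29.6% in library 2 and 44.3% and 24.2% in library 6, and those for SP1 40.5% and 20.5%, and 31.7% and 19.6%. Among the 7 sequences shown, NDUFB4 and ATP5MC2 hold the NRF1 word and NDUFS3 and COX8A the ETS word. The window of COX6A1 also held an ETS and an NRF1 word outside the stretch shown. That of ATP5F1A, which had no peak, held an ETS word outside its stretch.

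The windows had a median GC content of 61.0% against 63.7% for all coding genes, and a median CpG observed over expected ratio of 0.84 against 0.78. When all coding promoters were divided by GC content into 3 classes of nearly equal size, the respiratory genes were called more often than coding genes in each class. In HET-1A library 2 the shares were 47.4% against 18.5% in the low class, 60.0% against 42.4% in the middle class and 68.8% against 37.4% in the high class. In KYSE-30 library 6 they were 52.6% against 19.0%, 48.9% against 37.9% and 37.5% against 24.1%. The background lay within the interval of the respiratory genes for the middle and high classes of library 6. How far these genes stand out from other widely expressed genes was not tested.

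**Figure D5:**
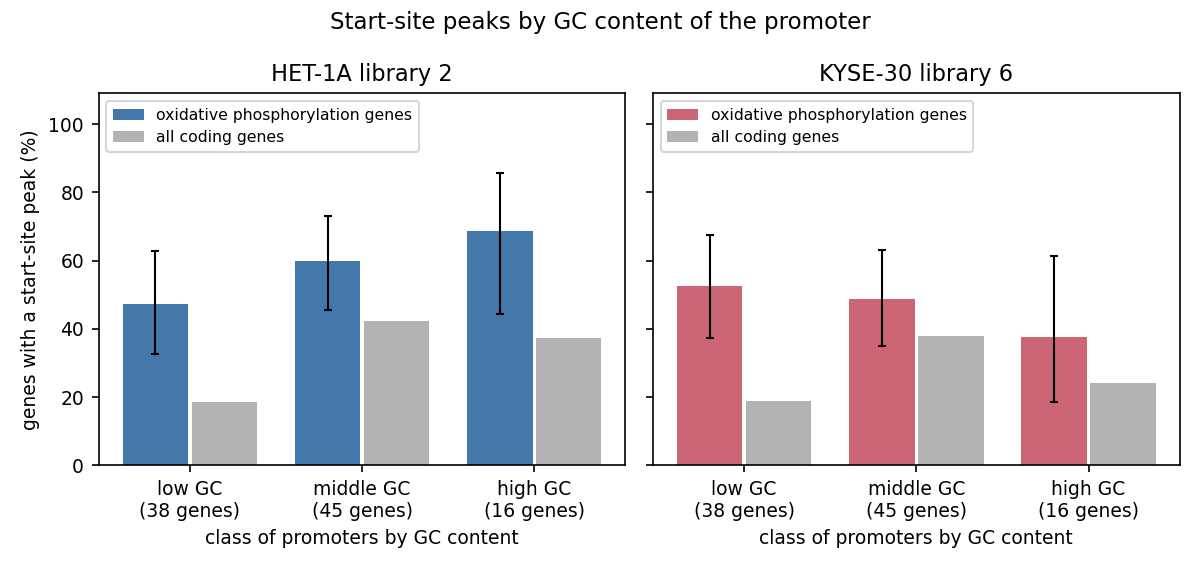
Share of genes with a start-site peak by class of GC content, for HET-1A library 2 (left) and KYSE-30 library 6 (right). Coloured bars are the oxidative phosphorylation genes with Wilson 95% intervals, grey bars all autosomal coding genes, with 38, 45 and 16 respiratory genes in the low, middle and high class.

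Other genes of mitochondrial and energy metabolism were counted in the same way, against 32.7% of coding genes in library 2 and 27.0% in library 6. Of 30 further assembly factors and cytochrome c genes, 23 were called in HET-1A library 2 (76.7%, 59.1 to 88.2) and 18 in KYSE-30 library 6 (60.0%, 42.3 to 75.4). Cytochrome c itself, CYCS, had 5.76 in library 2, 3.97 in KYSE-30 library 4 and 9.48 in library 6. CYC1, the cytochrome of complex III, had 3.95 in library 2 and no peak in KYSE-30. Of 78 genes of the mitochondrial ribosome, 47 (60.3%, 49.2 to 70.4) and 42 (53.8%, 42.9 to 64.5) were called in the 2 libraries. For the citrate cycle it was 10 (76.9%, 49.7 to 91.8) and 7 of 13 (53.8%, 29.1 to 76.8). For glycolysis, which runs outside the mitochondria, it was 8 (53.3%, 30.1 to 75.2) and 7 of 15 (46.7%, 24.8 to 69.9), and both intervals contain the background. Of 14 regulators of mitochondrial genes, 9 (64.3%, 38.8 to 83.7) and 7 (26.8 to 73.2%) were called, the latter with the background within its interval. NRF1, PPARGC1A, PPARGC1B and TWNK had no start-site peak in any library, while TFAM, which packages mitochondrial DNA, was called in library 6 at 6.80.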

How the data were processed

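ATAC-seq was performed on 6 libraries of 3 cell lines. Per the study's methods and the submitters' processing notes, reads were mapped to hg19 with Bowtie2 2.3.3.1, duplicates were marked with Picard 2.2.1, blacklisted regions were removed with bedtools 2.7.1, cut sites were shifted for Tn5, fragments under 100 bp were kept, and peaks were called per library with MACS2 2.1.0.20160309 (q under 0.05, tags extended to 200 bp, replicates not pooled). The deposited lists give each peak a score, a fold enrichment ratio over the local background, a −log10 p-value, a −log10 q-value and a summit offset. The authors deposited no counts here that were used, so read totals per library are not given, and only the genome backgrounds above describe the libraries as wholes. Tags and local background at the summit were recovered from the deposited fold enrichment and p-value. For each number of tags the fold enrichment fixed the background. The p-value was then matched within 0.001 on the −log10 scale for 99.6 to 100% of the peaks of a library.

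Peaks were assigned to start sites of GENCODE release 44 on hg19 within 1 kb (1000 bp), and promoter windows were read from hg19 since the RefSeq promoter table held 79 of the 99 genes (79.8%, under the 80% needed for a check on it). Python 3.11.15, pandas 2.3.3, numpy 2.4.6 and scipy 1.17.1 were used, figures were drawn with matplotlib 3.10.9, and the scripts were tested on simulated data. Named genes were those with a peak in 3 or more libraries, the 3 of each complex with the largest mean fold enrichment among those called in HET-1A library 2 and KYSE-30 library 6, those called in both KYSE-30 libraries, fixed isoform pairs, and genes of the fixed list of core subunits without a peak. NDUFAF2, NDUFAF4, NDUFAF5, NDUFAF6, NDUFAF7, NDUFA6, NDUFV3, SDHB and other genes outside this rule were named after their values were seen. The genes, lists and motifs were chosen with earlier results of these data known. Alternatives were narrower and wider windows, summits, other sets of starts, stricter q-values, equal numbers of peaks, structural subunits alone and each library left out. The marker PECAM1 was not analysed here. Values of 1 gene are not reported here.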

Additional observations from a re-analysis of the deposited data

How the results depend on the processing

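The counts rest on HET-1A library 2 and KYSE-30 library 6. Leaving out each library in turn, the number of genes with a peak in at least 1 library ranged from 50 to 71, that in HET-1A and in KYSE-30 from 0 to 34, that in HET-1A and not in KYSE-30 from 0 to 49, and that in KYSE-30 and not in HET-1A from 1 to 49. The extremes came without HET-1A replicate 2 (50, 0, 0 and 49) and without KYSE-30 replicate 6 (57, 7, 49 and 1). Without HET-1A replicate 2 the shares were 50.5%, 0%, 0% and 49.5%, against 28.2%, 0.0208%, 0.0208% and 27.6% of coding genes. Without KYSE-30 replicate 6 they were 57.6%, 7.07%, 49.5% and 1.01%, against 33.9%, 2.91%, 29.8% and 0.759%. When each list was held to its 168 peaks with the smallest p-values, the share of genes called was 0% in HET-1A library 2 (0.499% of coding genes) and 1.01% in KYSE-30 library 6 (0.785%). In that setting 3 genes were called in any library, NDUFV3 in KYSE-150 library 7, NDUFA11 in KYSE-30 library 4 and NDUFB5 in KYSE-30 library 6, with 0 shared by HET-1A and KYSE-30, 0 in the former alone, 2 in the latter alone and 0 in both libraries of KYSE-30, counts too small to set apart from those of coding genes. Under windows of 500 bp and 3 kb, summits in place of whole peaks, protein-coding transcripts alone, q under 0.01 or 0.001, and structural subunits alone, the share stayed between 56.6% and 61.0% in HET-1A library 2 and between 47.5% and 48.8% in KYSE-30 library 6. With the outermost start alone it was 47.5% (27.3% of coding genes) and 40.4% (22.7%). At q under 0.001, 6 genes were called in both KYSE-30 libraries (6.06%, against 2.48% of coding genes). KYSE-150 library 7 then held 1 of the genes (1.01%, against 1.34%) and KYSE-150 library 8 held 0 (against 0.213%). In the RefSeq promoter table, chosen as an alternative after the data were seen, the ETS, NRF1 and YY1 words were present in 26.8%, 27.8% and 15.5% of the promoters of 79 genes, against 13.0%, 9.77% and 3.56%. The count of shared genes over overlapping peaks alone was also chosen after the data were seen. No paired analysis was possible because the lines share no replicate number and no result comes from a test. Read totals per library were not analysed here, so the effect of depth on a missing peak was not tested.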

Other observations

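The rule kept to autosomes, and 3 respiratory genes on the X chromosome fall outside it. NDUFB11, an accessory subunit of complex I, had a start-site peak in HET-1A library 2 at a fold enrichment of 4.57 and in no other library. COX7B, a small subunit of complex IV, had one in KYSE-30 library 6 alone, at 4.28. NDUFA1, another accessory subunit of complex I, had no start-site peak in any library.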
